A study of Canis lupus familiaris with 33 samples.

Results

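The tumors compared here were chosen by measured values and are the 10 canine invasive urothelial carcinomas (iUC) with the highest and the 10 with the lowest mean of 5 interferon-stimulated genes, ISG15, RSAD2, OAS1, IFI44L and DHX58, out of 29 tumors. They are called interferon-high and interferon-low tumors. The remaining 9 tumors and 4 samples of normal bladder mucosa, which complete the 33 samples of the study, served for description only. Each tumor was a high-grade iUC biopsy taken by cystoscopy from a different treatment-naive pet dog, and the normal samples were the dissected urothelial layer of dogs without bladder disease. The dogs were of any age, sex and breed, and the labels record no treatment or genotype that separates the tumors. The sample labels give no interferon group, so both groups were read from the measured values and every comparison is an association with the score. Tumors are numbered by their order in the study, and the numbers carry no other information.

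Interferons are cytokines that a cell makes when its sensors detect foreign or misplaced nucleic acid. Type I and type III interferons act through JAK kinases and a transcription factor complex that includes STAT2 and IRF9 and switches on a large set of interferon-stimulated genes, among them enzymes that degrade or block viral RNA. Interferon-gamma comes mainly from T and NK cells and induces IRF1, with antigen presentation among its main targets. Carcinoma cells, stromal cells and leukocytes can all respond. The study describes these tumors as almost wholly epithelial in cellularity. In these bulk samples, a lower value from fewer cells of a type and one from less RNA per cell cannot be told apart.

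All values below are TMM-normalized, on the log2 scale, centred so that a gene has a median of 0 across the 33 samples, so they compare samples within a gene and not one gene with another. Groups were compared over all genes except the scoring genes with limma, and a gene was called at a Benjamini-Hochberg adjusted p of at most 0.05 and at least a 2-fold difference. The total count per sample is not known, since only normalized values were analysed. No nucleotide sequence was used.

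The score ranged from 0.87 in tumor 20 to 2.63 in tumor 26 among the interferon-high tumors, with a mean of 1.71 ± 0.64 (SD, n = 10). The interferon-low tumors ranged from -2.61 in tumor 4 to -0.95 in tumor 12, with a mean of -1.76 ± 0.49 (SD, n = 10). The tumors just outside the groups were tumor 13 at 0.69 and tumor 25 at -0.42, so the upper boundary fell within a gradual slope and the lower boundary at a wider gap. The normal samples lay between -3.02 and -2.20, and only tumors 4 and 23 (-2.61 and -2.31) reached into that range. The 5 scoring genes followed each other closely over the 29 tumors, with pairwise Pearson's r from 0.90 to 0.96, given as a description of genes measured in the same libraries.

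**Figure D1:**
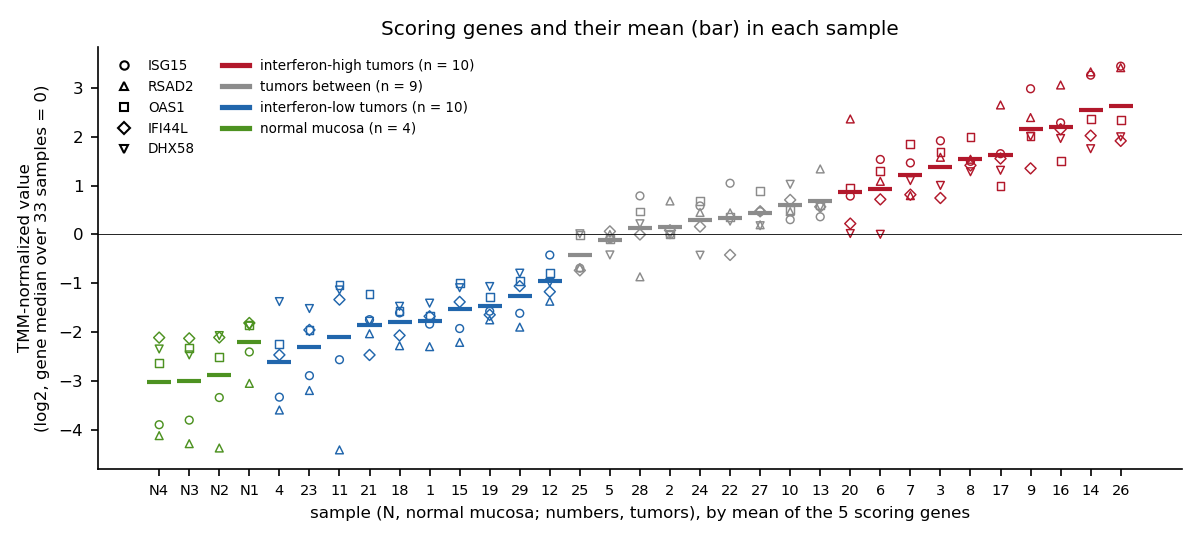
Value of each scoring gene (symbols) and their mean (bar) in every sample, on the log2 scale with the gene median at 0. Samples are ordered by the mean, normals first. The interferon-high tumors (red) sit between 0.87 and 2.63, the interferon-low tumors (blue) between -2.61 and -0.95, and the normals (green) between -3.02 and -2.20.

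Each scoring gene carried the split, but not equally. ISG15, a ubiquitin-like protein that is joined to target proteins, ranged from 0.79 to 3.45 in the interferon-high tumors (median 1.79) and from -3.34 to -0.42 in the interferon-low tumors (median -1.79). RSAD2, the antiviral enzyme viperin, ranged from 0.80 to 3.42 against -4.42 to -1.37. OAS1, an oligoadenylate synthetase that activates RNA decay, ranged from 0.96 to 2.37 against -2.25 to -0.79. IFI44L, an interferon-induced gene next to IFI44, ranged from 0.22 to 2.16 against -2.47 to -1.06, and DHX58, the helicase LGP2 of the RNA sensor family, from 0.00 to 2.01 against -1.78 to -0.79. These values chose the tumors and were not tested.

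Among the 19233 other genes tested, 79 were higher in interferon-high tumors (0.411% of the genes) and 24 were lower (0.125%), together 0.536%. Of the 79 higher genes, 35 stand in the interferon lists described below, which hold 123 tested genes. The higher genes had a median difference of 1.74 on the log2 scale. Of them, 32 differed by at least 4-fold and 14 by at least 8-fold. Every interferon-high tumor lay above every interferon-low tumor in 28 of the 79. Over all genes tested the groups did not overlap in 31 (0.161%), and in 30 of those the interferon-high tumors were above. None of the 24 lower genes separated the groups completely. At an unadjusted p under 0.05, 1307 genes were higher and 1083 lower. Without tumors 14 and 17, which stand apart in how many genes they detect, 61 genes were higher and 20 lower.

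**Figure D2:**
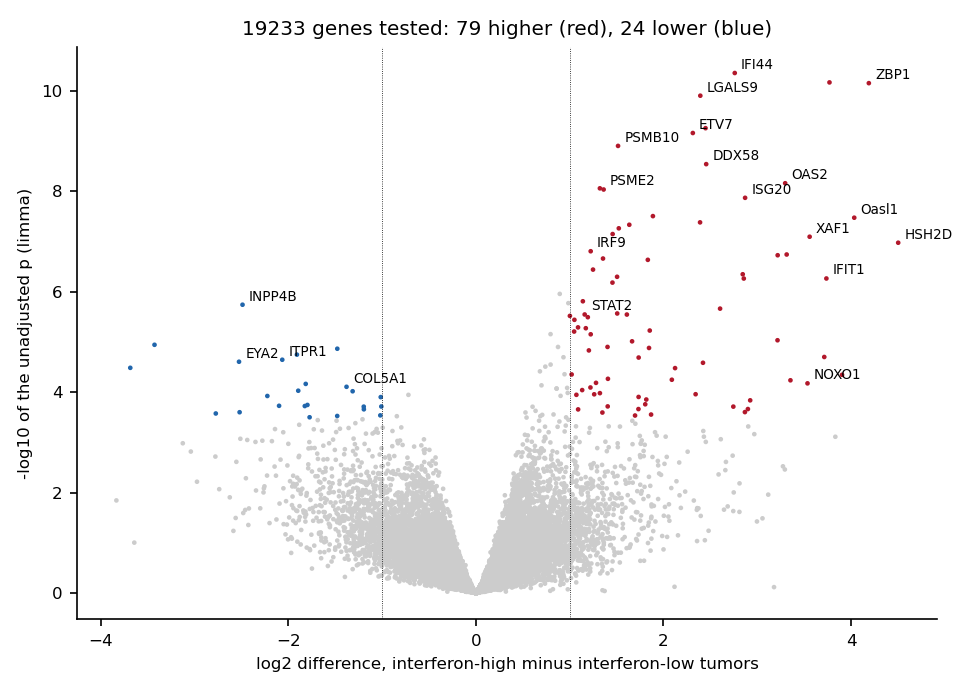
Log2 difference of each of the 19233 genes tested (x axis, interferon-high minus interferon-low tumors) against the -log10 of its unadjusted limma p (y axis), with dotted lines at a 2-fold difference. The 79 higher genes (red) reach a log2 difference of 4.50 for HSH2D, and the genes of lowest p lie on this side. The 24 lower genes (blue) include INPP4B at -2.49.

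The 10 largest rises among genes with a symbol were HSH2D, ZBP1, Oasl1, IFIT1, IFGGC1, XAF1, NOXO1, OAS2, BST2 and ISG20, and 6 of these 10 stand in the interferon lists described below. HSH2D, an adaptor protein with an SH2 domain, ranged from -1.01 to 3.58 in interferon-high tumors (median 3.00) and from -5.14 to -0.49 in interferon-low tumors (median -1.87), a difference of 4.50 ± 0.58 (SE) or 22.7-fold (adjusted p = 0.000102, limma). Tumor 3 alone among the interferon-high tumors fell within the range of the interferon-low tumors. Oasl1, an oligoadenylate synthetase-like gene, was 16.4-fold higher (log2 difference 4.03 ± 0.48), with values of 0.53 to 4.75 against -2.53 to -0.12 and no overlap. IFGGC1, named in the files without a function stated here, was 13.1-fold higher (3.71 ± 0.68), a call lost with 7 tumors a side (adjusted p = 0.102). NOXO1, which organizes a superoxide-producing NADPH oxidase of epithelia, was 11.6-fold higher (3.54 ± 0.72, adjusted p = 0.0169) and is not on any interferon list. Its call was lost without tumor 29 (3.18, adjusted p = 0.264), and likewise without tumor 4, 15, 18 or 23 (adjusted p from 0.0542 to 0.0733). It was also lost with 7 tumors a side (adjusted p = 0.336) and among genes above the lowest value in at least 20 tumors (adjusted p = 0.0726). 

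The 9 lists of interferon genes, from ligands to antigen presentation, held 123 distinct genes that were tested. Of these, 35 were higher (28.5%, against 0.411% of all genes tested) and none was lower. The genes of these lists are described in the order of the pathway.

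Interferon ligands and receptors gave no call among 6 tested genes, with a median log2 difference of 0.31, which was 0.07 without tumors 14 and 17 and 0.14 with the mean of leukocyte genes as a term of the fit. IFNB1, the gene of interferon-beta, stood at its lowest value in 3 of 10 interferon-high and 8 of 10 interferon-low tumors. Its values reached 2.97 and 1.06 in these groups, and the means differed by 1.15. IFNB1 was above its lowest value in 7 interferon-high, 2 intermediate and 2 interferon-low tumors. With 11 tumors against a minimum of 10 it barely entered the test and was not called. The normal samples held 3.83 to 5.52, but they also had far fewer genes at the lowest value than the tumors. IFNG, the gene of interferon-gamma, was at its lowest value in 5 tumors of each group, with a difference of 0.69 (95% confidence interval -0.67 to 2.06, adjusted p = 0.713 in limma). IFNGR1, a subunit of its receptor, differed by 0.03 (interval -0.27 to 0.32), and IFNLR1, of the type III interferon receptor, by 0.60 ± 0.18 (adjusted p = 0.165 in limma). No ligand or receptor passed the test. IFNAR1 was not analysed here.

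Of 13 nucleic acid sensors and adaptors tested, 4 were higher and none lower (median 0.47), and the groups did not overlap in any of these 4. ZBP1, a sensor of Z-form nucleic acids linked to necroptosis, ranged from 0.47 to 3.00 in interferon-high tumors (median 2.13) and from -3.26 to -1.34 in interferon-low tumors (median -2.20). This gap was 18.2-fold (4.19 ± 0.35, adjusted p = 4.55e-07, limma). MB21D1, which encodes the DNA sensor cGAS, was 7.18-fold higher, with values from -0.42 to 2.41 against -3.21 to -0.78. DDX58, the RNA sensor RIG-I, was 5.48-fold higher, from 0.28 to 2.29 against -1.68 to -0.35. MYD88, the adaptor of Toll-like receptors, was 2.5-fold higher, and its interferon-low tumors lay within -0.67 to -0.20. Some members of the list were not called. TMEM173, which encodes STING, differed by 0.78 (adjusted p = 0.207, limma), MAVS by -0.21 and TBK1 by 0.20, all named after their values were seen. TLR3, a sensor of double-stranded RNA, differed by 0.47 (interval -0.30 to 1.24). IFIH1 was not analysed here.

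Among 17 genes of JAK-STAT and IRF signalling, 4 were higher and none lower (median 0.31, 0.46 without tumors 14 and 17 and 0.20 with the leukocyte term). IRF9, the DNA-binding subunit of the type I interferon complex, ranged from 0.23 to 1.02 in interferon-high tumors (median 0.69) and from -1.03 to 0.02 in interferon-low tumors (median -0.67), with no overlap and a 2.34-fold difference (1.22 ± 0.16) that fell under 2-fold with 14 tumors a side (0.94). STAT2, its partner, was 2.23-fold higher (1.16 ± 0.18, adjusted p = 0.00141, limma), with values from 0.13 to 1.49 against -0.68 to 0.68. Tumor 11, at 0.68, was the interferon-low tumor farthest above the others. The call of STAT2 was lost with 14 tumors a side, where it differed by 0.81, and with 7 a side (adjusted p = 0.0658). ETV7, an ETS-family repressor that interferon induces, was 4.97-fold higher without overlap (2.31 ± 0.22). IRF1, the main transcription factor of the interferon-gamma response, was 2.10-fold higher (1.07 ± 0.23, adjusted p = 0.0237, limma), and tumor 20 had the highest value, 1.72. This was the least steady of the 4. Without tumor 14 or tumor 29 its adjusted p was 0.0535 or 0.0533, and without tumor 12 or tumor 20 its difference fell under 2-fold, to 0.96 in either case. It also lost its call in 6 of 19 other settings, with an adjusted p of up to 0.172 with 7 tumors a side. The kinases JAK1, JAK2 and TYK2, named after their values were seen, differed by -0.11, 0.19 and -0.14, with no call. IRF7 was not analysed here.

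Antiviral effectors made up the largest group, with 16 of 30 tested genes higher (53.3%), none lower and a median of 1.77. All 30 differences were positive with an unadjusted p under 0.05, and 18 had an adjusted p of at most 0.05. Without tumors 14 and 17 the count was 15 of 30. OAS2, an oligoadenylate synthetase, ranged from 0.28 to 2.46 in interferon-high tumors (median 1.66) and from -3.08 to 0.00 in interferon-low tumors (median -1.73), a 9.83-fold difference (3.30 ± 0.36). IFI44 had the lowest p of this list, with values from 0.84 to 2.39 against -1.87 to -0.35 and a 6.77-fold difference (2.76 ± 0.23, adjusted p = 4.55e-07, limma). RNF213, a large ubiquitin ligase with antimicrobial activity, was 5.46-fold higher (2.45 ± 0.23). These 3 genes separated the groups completely.

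IFIT1, which binds viral RNA that lacks the host cap, ranged from -1.76 to 3.47 (median 2.12) against -2.62 to -1.39 (median -2.19), with 9 of 10 interferon-high tumors above all interferon-low tumors and a 13.3-fold difference (3.74 ± 0.53, adjusted p = 0.000352, limma). Its call was lost with 14 tumors a side (2.26, adjusted p = 0.212). XAF1, which promotes apoptosis, was 11.8-fold higher (3.56 ± 0.45). BST2, the tetherin that holds budding virus at the membrane, was 9.30-fold higher (3.22 ± 0.43), and tumor 6 at -0.28 was the exception among values of up to 3.68. ISG20, an exonuclease that degrades RNA, was 7.31-fold higher without overlap (2.87 ± 0.32). LGALS9, which encodes galectin-9, was 5.25-fold higher without overlap (2.39 ± 0.21). Of this list, EIF2AK2, the kinase PKR that stops translation, was named after its values were seen and was 3.11-fold higher (1.64 ± 0.20). OAS1, OAS2 and OAS3 are neighbours in the RefSeq gene table of assembly UU_Cfam_GSD_1.0, as are IFI44 and IFI44L, and members of the OAS and IFIT families resemble each other, so that reads may be shared between copies. MX1 was not analysed here.

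**Figure D3:**
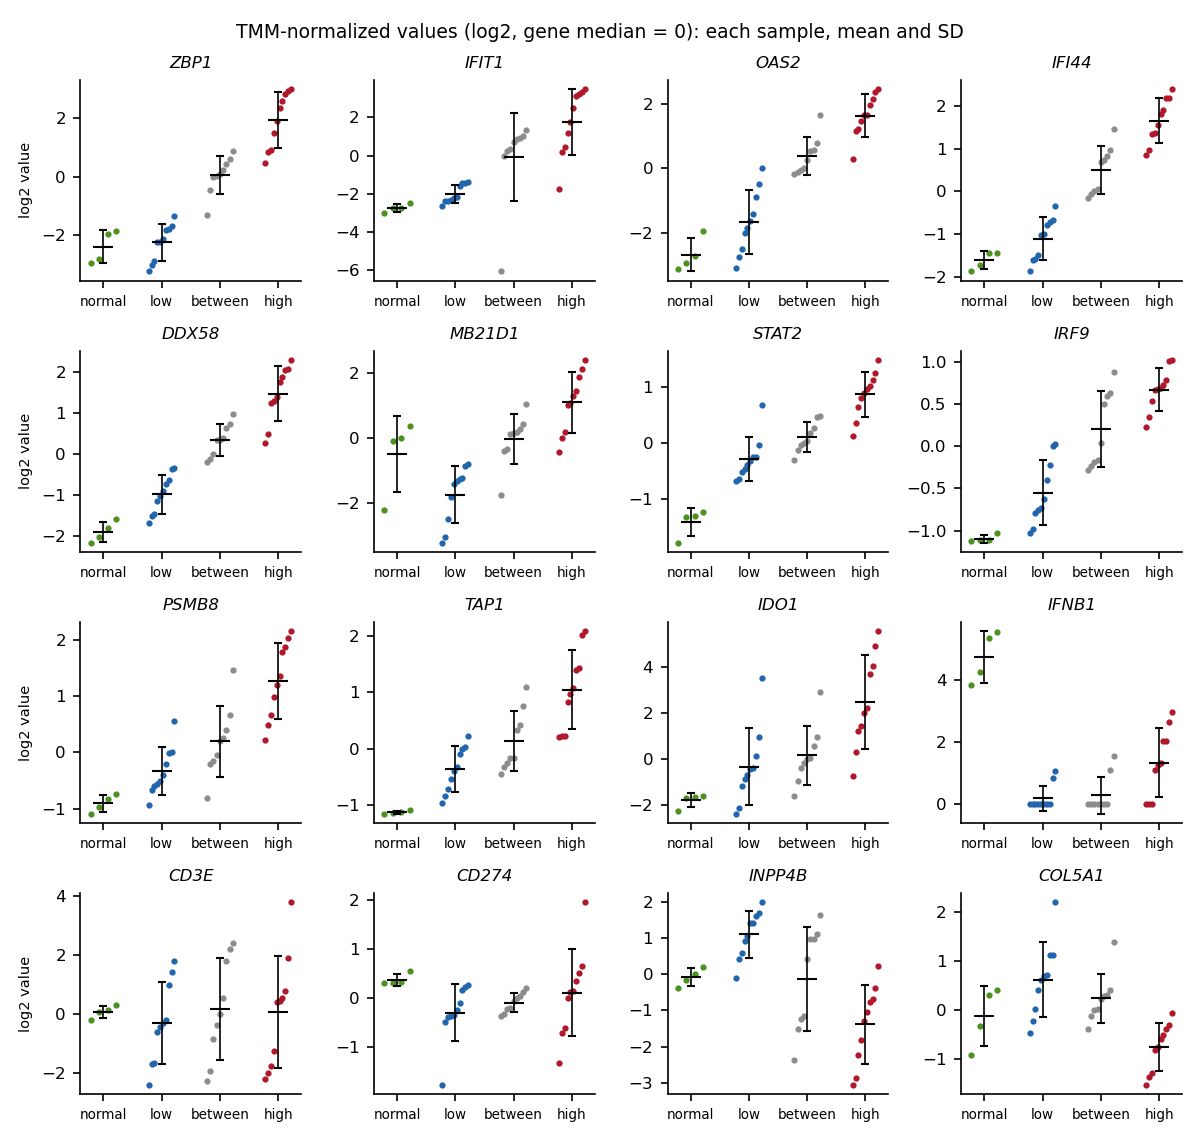
Value of 16 genes in each sample (points), with mean and SD, for normal mucosa (n = 4), interferon-low (n = 10), intermediate (n = 9) and interferon-high tumors (n = 10), on the log2 scale with the gene median at 0. ZBP1, OAS2, IFI44, DDX58, MB21D1 and IRF9 do not overlap between interferon-low and interferon-high tumors, while CD3E and CD274 overlap widely. INPP4B and COL5A1 are lower in interferon-high tumors.

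Of 7 genes tested in the ISG15 and ubiquitin list, 4 were higher and none lower (median 1.05). UBA7, the activating enzyme of ISG15, was 2.56-fold higher (1.36 ± 0.18), and UBE2L6, its conjugating enzyme, 2.84-fold (1.51 ± 0.24). UBE2L6 ranged from 0.36 to 2.36 against -1.31 to 0.23 and did not overlap. TRIM14 rose by 1.46 ± 0.18, and PARP12, an ADP-ribosyltransferase, by 1.05 ± 0.17. PARP12 stayed past the adjusted p without tumor 14 (difference 0.98) or tumor 1 (0.95) and with 14 tumors a side (0.90) but fell under 2-fold. TRIM25, an ISG15 ligase named after its values were seen, differed by 0.60 without passing the test (adjusted p = 0.0949, limma). USP18, which removes ISG15, was not analysed here. None of 8 genes of the feedback inhibitors was called in either direction by limma, none had an unadjusted p under 0.05, and their median was -0.04 (-0.26 with the leukocyte term). SOCS1, which inhibits JAK kinases, differed by 1.03 (interval -0.15 to 2.22, adjusted p = 0.481, limma).

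Genes of class I antigen presentation were higher in 6 of 17 tests (35.3%), and all 17 differences were positive (median 1.29). PSMB10, a subunit of the immunoproteasome that trims peptides for presentation, ranged from 0.59 to 1.44 in interferon-high tumors (median 1.09) and from -0.91 to 0.09 in interferon-low tumors (median -0.47), and was 2.86-fold higher (1.52 ± 0.15, adjusted p = 3.46e-06, limma). PSME2, an activator of the proteasome, was 2.57-fold higher without overlap (1.36 ± 0.15). PSMB8 ranged from 0.22 to 2.16 against -0.94 to 0.56 and was 3.05-fold higher (1.61 ± 0.26), a call lost with 7 tumors a side (adjusted p = 0.0615), and TAP1, a subunit of the peptide transporter, ranged from 0.20 to 2.08 against -0.96 to 0.23 and was 2.65-fold higher (1.40 ± 0.25). The other called members were TAP2 (1.02 ± 0.20) and PSMB9 (1.35 ± 0.31), which lie beside PSMB8 and TAP1 in the RefSeq table, so these 4 genes share a locus. TAP2 and PSMB9 lost their calls in 6 and 14 of the 20 fits that each left out 1 tumor. The count was 4 of 17 without tumors 14 and 17 and lay between 4 and 7 when any 1 tumor was left out. The class I heavy-chain genes DLA88 and DLA-64 differed by 1.29 and 1.25 without passing the test (adjusted p = 0.164 and 0.203, limma). They were named after their values were seen, and such genes are polymorphic and similar to each other. B2M was not analysed here. Class II presentation gave no call among 12 genes (median 0.55, 3 at an unadjusted p under 0.05), and CIITA, its master regulator, differed by 0.57 (interval -0.18 to 1.33).

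Of 14 genes known to answer interferon-gamma, 1 was higher and none lower (median 0.61). It was RARRES3, a phospholipase with growth-suppressing activity (2.09 ± 0.42, adjusted p = 0.0149, limma), and its call was lost in 4 of 19 other settings, among them without tumors 14 and 17 (2.00, adjusted p = 0.0718) and with 7 tumors a side (1.64, adjusted p = 0.139). IDO1, which degrades tryptophan, had the largest difference on the list, 2.81, with an interval of 0.87 to 4.75 and an adjusted p of 0.207 in limma. It ranged from -0.76 to 5.55 in interferon-high tumors and from -2.39 to 3.51 in interferon-low tumors, so the groups overlapped widely. CD274, which encodes PD-L1, differed by 0.41 (interval -0.27 to 1.09), with its highest value, 1.96, in tumor 20. Of 12 immune checkpoint genes, LGALS9 was the only one called. No chemokine was called among 18 tested (median 0.63, 6 at an unadjusted p under 0.05). CXCL16, a ligand of the receptor CXCR6, was nearest, at 0.95 ± 0.24 (adjusted p = 0.0734, limma), and was called without tumor 9, 20 or 23 (1.06, 1.03 and 1.02). CCL8, a monocyte attractant, differed by 1.73 (adjusted p = 0.177, limma). CXCL9 and CXCL10 were not analysed here. Whether the antiviral and interferon-gamma lists differ from each other was not tested.

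**Figure D4:**
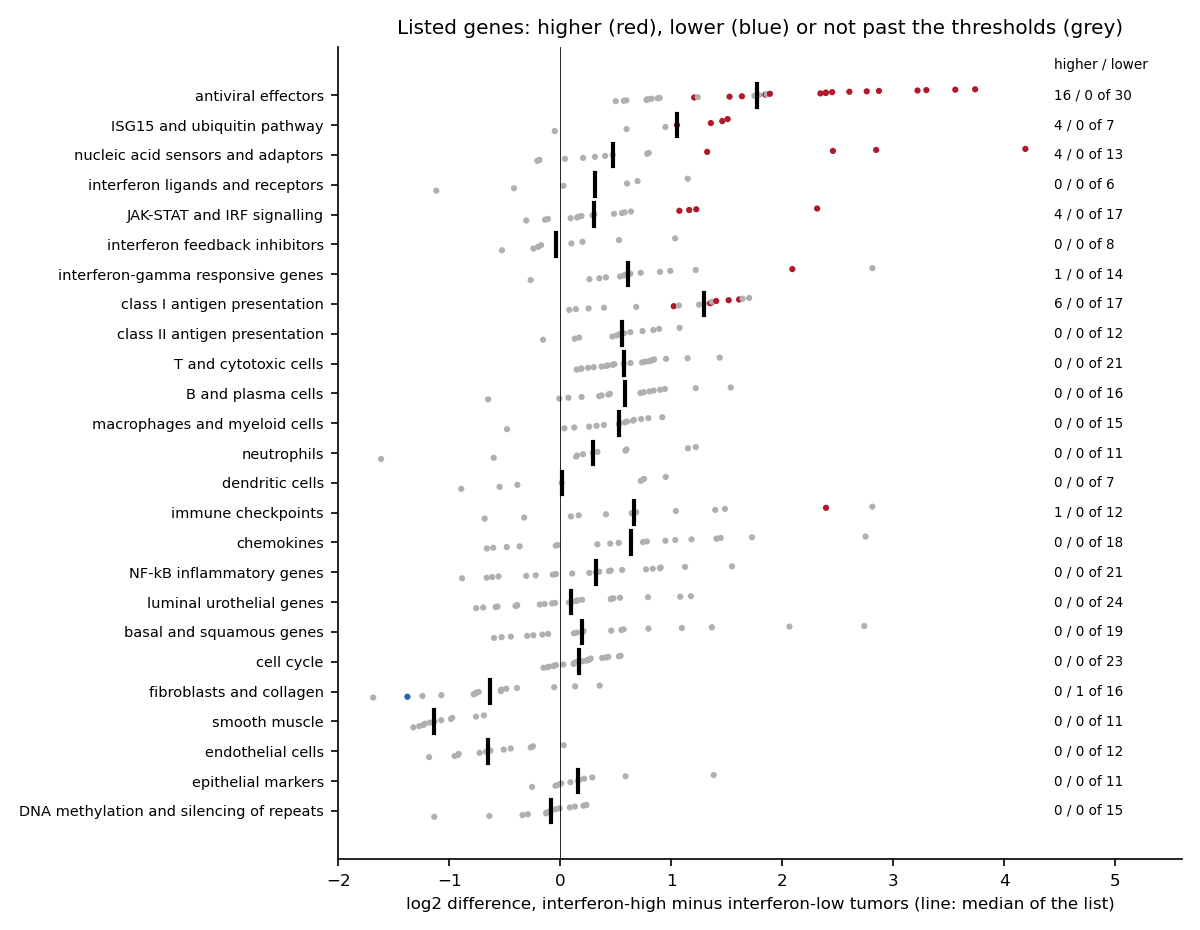
Log2 difference between interferon-high and interferon-low tumors of each tested gene (points) in 25 lists, with the median of each list (line) and, at the right, the genes higher and lower of those tested. Red points crowd the antiviral effectors (16 of 30) and class I presentation (6 of 17), while the leukocyte, urothelial and cell cycle lists hold no called gene.

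No gene on the leukocyte lists passed the test. Of 70 genes on the lists of T, B, myeloid, neutrophil and dendritic cells, 62 had a positive difference, with a median of 0.51, against 50.6% of all genes tested. An unadjusted p under 0.05 was found for 8 of the 70, against 12.4% of all genes, and the lowest adjusted p was 0.220 (limma). Of 15 macrophage and myeloid genes, 14 were positive (median 0.53) and 5 had an unadjusted p under 0.05. SIGLEC1, a macrophage receptor that interferon induces, differed by 0.53 (adjusted p = 0.220, limma), and C1QA, of complement C1q, by 0.92 (adjusted p = 0.234, limma). All 21 T and cytotoxic genes were positive (median 0.57). CD3E, a part of the T-cell receptor complex, nevertheless ranged from -2.21 to 3.79 in interferon-high tumors (median 0.43) and from -2.42 to 1.78 in interferon-low tumors (median -0.38), and its difference of 0.37 had an interval of -1.07 to 1.82. CD8A, the coreceptor of cytotoxic T cells, differed by 0.84 (interval -0.69 to 2.38), and PTPRC, which encodes the pan-leukocyte CD45, by 0.61 (interval -0.14 to 1.36). The mean of 52 leukocyte genes ran from -1.02 in tumor 3 to 2.55 in tumor 20 within the interferon-high group, and from -1.0 to 0.79 within the interferon-low group. Tumor 20, the interferon-high tumor of lowest score, was the tumor richest in these genes, with a value of 8.77 for JCHAIN, of antibody-secreting cells. With the leukocyte mean as a term of the fit, 16 of 30 antiviral effectors, 5 of 17 class I genes and 3 of 17 JAK-STAT and IRF genes were called higher, and the median of the T and cytotoxic genes was -0.10. Over all genes that fit called 74 higher and 37 lower, of which 69 and 14 were among the 79 and 24.

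**Figure D5:**
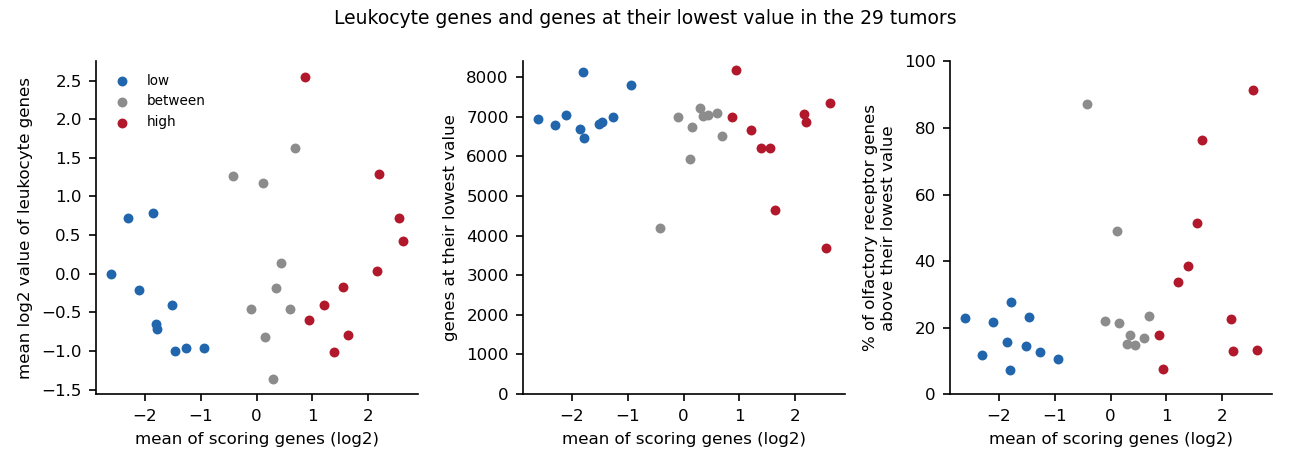
Mean of 52 leukocyte genes, number of genes at their lowest value, and percent of 374 olfactory receptor genes above it (y axes) against the mean of the scoring genes (x axis) in the 29 tumors. Leukocyte genes span from -1.02 to 2.55 among interferon-high tumors (red). Tumors 14 and 17 (red) and tumor 25 (grey) stand apart by few genes at the lowest value and many olfactory receptor genes above it.

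Libraries also differed in how many genes they detected. A gene that several samples share at its lowest value is taken as not detected there. The interferon-high tumors held a mean of 6390 such genes and the interferon-low tumors 7060, a difference within the spread (two-sided permutation test, p = 0.164). Olfactory receptor genes, which urothelium is not known to use, were above their lowest value for 36.6% of 374 genes in interferon-high and 16.8% in interferon-low tumors (permutation test, p = 0.0399). Within the groups compared, tumors 14 and 17 were the extremes, with 91.4% and 76.5% of these genes and 3699 and 4638 genes at the lowest value. The intermediate tumor 25 had 87.2% and 4189, and the normals held 99.7% to 100% and 755 to 1019. Of the 79 higher genes, 8 were at the lowest value in at least 2 interferon-low tumors, among them TTR, which encodes the transport protein transthyretin. TTR was at its lowest value in all 10 interferon-low and 2 interferon-high tumors and at 4.18 to 5.73 in the normals. TTR was above it in 8 interferon-high and 4 intermediate tumors, so it entered the test only through the group where it was higher, and its call is no support for a difference. It was the only such gene of the 79, and 2 of the 24 lower genes entered in the same way through the interferon-low tumors. Lower genes at the lowest value in interferon-high tumors were ENSCAFG00000037018 and ENSCAFG00000034145 (8 tumors each), ENSCAFG00000038412 and ENSCAFG00000017274 (4 each) and ENSCAFG00000040776 (3). They were named after their values were seen. With the number of genes at the lowest value as a term of the fit, 62 genes were higher and 18 lower, of which 58 and 14 were among the 79 and 24. With tumors 14 and 17 left out, IFNB1 differed by 0.89, IFIT1 by 3.38 and NOXO1 by 3.30, the last 2 still called.

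The 24 lower genes, whose number lay between 11 (without tumor 4) and 31 (without tumor 16) when 1 tumor was left out, had a median difference of -1.82 and did not fall into the interferon lists. INPP4B, a phosphatase that dampens PI3K signalling, had the lowest p among the named ones. It ranged from -3.06 to 0.22 in interferon-high tumors (median -1.17) and from -0.11 to 1.98 in interferon-low tumors (median 1.23), with 9 of 10 interferon-high tumors below all interferon-low tumors and a 5.61-fold difference (-2.49 ± 0.38, adjusted p = 0.00100, limma). ITPR1, a calcium channel of the endoplasmic reticulum, was 4.18-fold lower (-2.06 ± 0.38), again with 9 of 10 below. EYA2, a transcriptional coactivator, was 5.75-fold lower (-2.52 ± 0.47), with 6 of 10 below, and MANEAL was 3.51-fold lower (-1.81 ± 0.37). These 4 kept their calls when any 1 tumor was left out, but all lost them with 14 tumors a side (adjusted p = 0.122, 0.0873, 0.350 and 0.475), and ITPR1, EYA2 and MANEAL also with 7 a side. Of 19 other settings, INPP4B lost its call in 1, ITPR1 in 2, EYA2 in 3 and MANEAL in 4.

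Other large falls lost their calls when single tumors were left out. TMEM232 differed by -2.22 and was lost without tumor 29, 19 or 4 (-2.17, -2.19 and -2.18, adjusted p = 0.0550, 0.0539 and 0.0549), and CCDC170 (-1.89) without tumor 19 or 4 (adjusted p = 0.0533 and 0.0538), and each of them lost its call in 3 of the 19 other settings. IGSF23 (-2.52), SERPINB7 (-2.10), SOBP (-1.79) and MSANTD3-TMEFF1 (-1.77) lost their calls in 16, 12, 13 and 15 of the 20 fits that each left out 1 tumor. Of the 24 lower genes, 9 were called in all of these fits, against 57 of the 79 higher genes. The 9 include the 2 lower genes that entered the test only through the interferon-low tumors, and the 57 include TTR. The calls of these genes are no support for a difference. Among lower genes named after their values were seen, JAG1, a Notch ligand, was 2.29-fold lower (-1.19 ± 0.27), a call lost in 14 of the 20 fits.

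Most stromal genes had a negative difference, with 1 call. COL5A1, a fibrillar collagen chain, ranged from -1.53 to -0.07 in interferon-high tumors (median -0.68) and from -0.46 to 2.19 in interferon-low tumors (median 0.65), a 2.60-fold difference (-1.38 ± 0.28, adjusted p = 0.0191, limma) that lost its call with 7 tumors a side (adjusted p = 0.230). COL1A1 differed by -1.69 (adjusted p = 0.189, limma), and the median of 16 fibroblast and collagen genes was -0.64. All 11 smooth muscle genes were negative (median -1.13), where 50.6% of all genes tested were positive. Of these 11, 8 had an unadjusted p under 0.05, against 12.4% of all genes, and none was called by limma. Their mean was highest in tumor 29 (3.31) and tumor 15 (2.76), both interferon-low. The other interferon-low tumors lay between -0.79 and 1.03, and the interferon-high tumors between -1.39 and 0.34. The 12 endothelial genes had a median of -0.65 without a call. With the leukocyte term the medians of the fibroblast and endothelial lists were -1.05 and -1.07.

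Urothelial and cell cycle genes did not separate the groups. None was called among 24 luminal genes (median 0.09, 2 at an unadjusted p under 0.05), 19 basal and squamous genes (0.20, 2), 23 cell cycle genes (0.17, none, with 0.29 without tumors 14 and 17) and 11 epithelial markers (0.16, 2) in limma. The medians of the luminal and of the basal and squamous genes were 0.007 and 0.32 without tumors 14 and 17. With the leukocyte term they were 0.15 and -0.0049. PPARG, a regulator of luminal differentiation, differed by -0.58 (interval -1.21 to 0.05), UPK2, an uroplakin of the luminal surface, by 0.11 (interval -0.66 to 0.88), and EPCAM, an epithelial adhesion molecule, by -0.26 (interval -0.78 to 0.27). IVL, the squamous envelope protein involucrin, had a wide difference of 2.74 (interval 1.14 to 4.34, adjusted p = 0.131, limma). Genes of DNA methylation and repeat silencing gave no call among 15 (median -0.09, 2 at an unadjusted p under 0.05). DNMT3B, a DNA methyltransferase, differed by -0.64 (adjusted p = 0.208, limma). KRT5 and MKI67 were not analysed here.

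The 9 intermediate tumors were not used in the comparison. Their mean lay between the means of the groups for 77 of the 79 higher genes (97.5%) and 23 of the 24 lower genes (95.8%), against 39.5% of all genes tested. The genes were called for a wide gap between those means, so this is a description only. The scores of these 9 tumors spanned only -0.42 to 0.69. Within them, 58 of the 79 higher genes correlated positively with the score (73.4%, median r = 0.30) and 21 did not. Of the 24 lower genes, 12 were negative and 12 positive (50%). Over all genes tested, 48.1% correlated positively, with a median r of -0.02. ZBP1 was among the genes that followed the score most closely (r = 0.86) and IFIT1 had r = -0.41, given as descriptions. Tumor 13 alone set the sign for IFIT1, whose r was 0.41 over the other 8 tumors, against 0.81 for ZBP1.

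Within the interferon-high group the higher genes did not move as a block. Their mean was lowest in tumor 6 (0.64) and tumor 7 (0.77) and highest in tumor 14 (1.84) and tumor 26 (1.56). Tumor 6 was the lowest of the 10 in 21 of the 79 genes and tumor 20 in 17. Each of the 10 tumors exceeded every interferon-low tumor in at least 58 of the 79 genes, and tumor 14 did so in 74. The 79 genes were called for being higher in these same tumors, so high counts are built in and are a description only. Tumor 14 also had the fewest genes at the lowest value among the 10, 3699.

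In normal mucosa, the mean of 52 of the 79 higher genes was below that of the interferon-low tumors (65.8%, against 47.7% of all genes tested), and for 11 of the 79 it was above that of the interferon-high tumors (13.9%, against 53.2%). The antiviral effectors had a mean of -1.38 there, against -0.68 in interferon-low and 1.14 in interferon-high tumors, and the lowest tumor (tumor 19, -0.92) was above the highest normal (-1.22). Smooth muscle genes averaged 4.47 to 6.39 in the normal samples and epithelial markers -2.92 to -1.69, against -0.28 to 0.71 for epithelial markers in interferon-high tumors.

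Genes without a symbol made up 19 of the 79 higher and 6 of the 24 lower genes. ENSCAFG00000028873 was 13.6-fold higher (3.77 ± 0.32, adjusted p = 4.55e-07, limma), with values from 0.37 to 2.45 against -3.11 to -1.34, so it stood with ZBP1 and IFI44 at the lowest p. ENSCAFG00000037018 fell by 3.68 on the log2 scale and was at its lowest value in 8 of 10 interferon-high tumors. It is 1 of the 2 lower genes that entered the test only through the interferon-low group. It lost its call in 3 of the 19 other settings and was not tested in 1 of them. The files pair neither with a symbol, and both were named after their values were seen.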

How the data were processed

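RNA from 29 canine iUC biopsies and 4 samples of normal bladder mucosa had been sequenced in a single batch. The authors removed ribosomal RNA, aligned paired-end reads to the canine genome (CanFam 3.1) with COBWeb in Strand NGS 3.1, quantified annotated genes and deposited 2 tables, TMM-normalized and DESeq-normalized, on the log2 scale with the median of every gene over all 33 samples subtracted. A lowest value shared by several samples was read from the values as a normalized value of 1 and is not described by the authors. In the copies analysed here the last line of each table is incomplete and was dropped, leaving 25096 and 25139 genes. Of the former, 12202 carry a symbol, and 777 more were named through their Entrez ID in RefSeq (UU_Cfam_GSD_1.0), which was used only for names and neighbours because its build differs.

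Depth per sample is unknown, and because normalized values rather than counts were used, count models were not applied. The 5 scoring genes were averaged over each tumor in the TMM table, and the 10 highest and 10 lowest tumors were compared in R 4.3.3 by the moderated test of limma 3.58.1 with a mean-variance trend (two-sided, no covariates), with Benjamini-Hochberg adjustment over 19233 genes above their shared lowest value in at least 10 tumors. Each tumor is a different dog, so p-values measure the spread between dogs, but the groups were formed from the same values. On simulated data of 19233 genes in this comparison, 75 of 100 genes shifted by 2 and 84 of 100 shifted by 3 log2 units passed, with 7 unchanged genes. The simulation drew independent normal noise for each gene, without shared lowest values and without groups formed from the values. Its rates may therefore not hold for these data. Permutation tests used 100000 resamples.

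The members, the gene lists and the tests were chosen with earlier results of these data known. Named genes are the scoring genes, the 10 largest rises and falls with a symbol, up to 4 genes of lowest p in each list, and 30 genes fixed by name, of which 11 were not analysed here. Alternatives were the authors' DESeq-normalized table, no trend, other filters and thresholds, all tumors in 3 groups, other group sizes, scores with a gene left out or scaled, the continuous score, 3 added terms, and each tumor left out. Leaving out tumors 14 and 17 together was chosen after seeing the data. Other steps ran in Python 3.11.15 (numpy 2.4.6, scipy 1.17.1, pandas 2.3.3, matplotlib 3.10.9).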

Additional observations from a re-analysis of the deposited data

Results flagged for a closer look

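Within each group, the highest or lowest sample was marked where its gap to the next sample took up a large share of the range of the group (Dixon's ratio), over 88 genes printed here and measures of whole samples. Of 367 group ranges examined, 37 were marked, where chance would mark about 5% of them. Each value is followed by that of the nearest sample of the group.

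Among interferon-high tumors, tumor 6 was low in RNF213 (-0.13, next 1.05) and BST2 (-0.28, next 1.83), tumor 3 in HSH2D (-1.01, next 1.61), tumor 9 in SOBP (-2.87, next -1.02) and tumor 20 in PPARG (-2.33, next -0.60). Tumor 20 was high in IRF1 (1.72, next 0.92).

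Among interferon-low tumors, tumor 11 was high in JAK2 (1.18, next 0.08) and STAT2 (0.68, next -0.03), tumor 4 in TYK2 (0.76, next 0.20), tumor 18 in TRIM25 (0.75, next 0.02) and tumor 1 in TMEM232 (2.76, next 1.07). Tumor 18 was low in CD274 (-1.77, next -0.48), tumor 19 in IFIT3 (-2.35, next -1.07), tumor 12 in DLA-64 (-1.93, next -0.56), tumor 1 in PARP12 (-1.29, next -0.62) and tumor 4 in IDH2 (-1.68, next -0.51).

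Among the intermediate tumors, tumor 13 was low in IFIT1 (-6.05, next 0.00) and IFIT3 (-5.28, next -0.16) and high in JCHAIN (4.48, next 1.63) and TTR (3.13, next 0.98). Tumor 27 was high in NOXO1 (4.82, next 1.57), tumor 25 in COL5A1 (1.39, next 0.41) and tumor 28 in ACAA1 (1.46, next 0.54). Tumor 24 was low in TMEM232 (-2.52, next -0.70), and tumor 28 in SOBP (-1.51, next -0.39) and MANEAL (-3.79, next -0.94). Tumor 25 also stood apart by 4189 genes at their lowest value (next 5945) and by 87.2% of olfactory receptor genes above it (next 48.9%).

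Among the 4 normal samples, normal 4 was low in UPK2 (-2.14, next 0.35), CXCL16 (-3.18, next -2.25), PSME2 (-1.98, next -1.50), STAT2 (-1.77, next -1.31) and EIF2AK2 (-1.89, next -1.55), and normal 2 in IDO1 (-2.26, next -1.69). Normal 1 was high in CD274 (0.55, next 0.32), IFI44L (-1.81, next -2.11) and IRF9 (-1.03, next -1.12).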

How the results depend on the processing

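The 79 higher genes were the same 79 among the 81 called in the DESeq-normalized table, and 22 of the 24 lower genes were among its 23. Leaving out ISG15, OAS1, IFI44L or DHX58 from the score, or scaling the genes, chose the same tumors, while leaving out RSAD2 kept 9 of 10 interferon-high and all interferon-low tumors and gave 75 higher and 24 lower genes, of which 66 and 16 were among the 79 and 24. The higher genes numbered between 56 and 102 under the other settings except for 47 with 14 tumors a side, and between 63 and 87 when any 1 tumor was left out. The lower genes numbered 4 with 14 tumors a side, 4 with 7 a side and 37 with the leukocyte mean as a term, and between 11 (without tumor 4) and 31 (without tumor 16) with 1 tumor left out. They were also fewer than 24 by over 1.5 times without tumors 19 (12), 29 (13), 6 (14), 3 (15) and 14 (15). With 7 tumors a side 24 of the 40 named calls passed, and with 1 tumor left out 33 to 39 of them, while the named genes called, gained calls included, numbered 33 to 40. The cause of these changes was not tested. Of the named calls, 20 passed under every setting and none changed direction. Of all higher genes, 34 were called under every setting, and of all lower genes none. No scaling moved the median of all genes by more than 0.1.

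Among genes that were not called, direction changed as follows, with no call in any case. CD3E differed by -0.25 with 7 tumors a side, -0.046 with a score without RSAD2, -0.57 with the leukocyte mean as a term and -0.043 without tumor 20, and otherwise reached up to 0.62 with 1 tumor left out. EPCAM differed by 0.10 both with 14 and with 7 tumors a side. IFNGR1 differed by -0.060 with 7 a side, -0.026 with the continuous score and -0.0086 with the number of genes at the lowest value as a term, and lay between -0.024 and 0.075 with 1 tumor left out, being negative without tumor 3, 8, 12, 23 or 29. UPK2 lay between -0.086 (without tumor 21) and 0.28 with 1 tumor left out. CXCL16, MAL2 and TET1 were called under at least 1 setting. Titles that begin with a digit or a letter, used as a term, gave 79 higher and 21 lower genes. No paired analysis was possible because the labels give no shared replicate numbers and each tumor comes from a different dog. The unknown depth per sample limits all statements on genes near their lowest value.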

Other observations

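Of the 60 higher genes with a symbol, 25 stood in no list, and those given here were chosen after their values were seen. GSDMD, the pore-forming protein of pyroptosis, was 2.84-fold higher in interferon-high tumors (1.51 ± 0.21 on the log2 scale, adjusted p = 0.000348, limma), with values from 0.42 to 1.72 against -1.30 to 0.09. TNFRSF14, the receptor HVEM, which binds the checkpoint BTLA, was 2.74-fold higher (1.46 ± 0.21, adjusted p = 0.000411, limma), from 0.45 to 1.52 against -1.38 to 0.22. IDH2, a mitochondrial isocitrate dehydrogenase, was 2.29-fold higher (1.19 ± 0.19), from 0.61 to 1.25 against -1.68 to 0.37, a call lost with 7 tumors a side. None of these 3 overlapped between the groups. ACAA1, a peroxisomal thiolase, was 2.13-fold higher (1.09 ± 0.18), a call lost with 14 tumors a side and without tumor 16, and it lies next to MYD88 in the RefSeq table.

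Tumor 13, an intermediate tumor with a score of 0.69, had the lowest IFIT1 (-6.05) and IFIT3 (-5.28) of all 29 tumors. The next lowest values were -2.62 and -2.35, both in tumor 19, and the normals held -3.02 to -2.47 for IFIT1 and -0.49 to -0.11 for IFIT3. Its IFIT2 was 2.01, the 25th from the lowest of 29, and IFIT2 and IFIT3 are neighbours in the RefSeq table. These genes were picked after their values were seen.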
